A study of Mus musculus with 8 samples.

Results

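Eyes taken at ZT3, 3 h after lights-on, were compared with eyes taken at ZT9, ZT15 and ZT21. A gene was counted as a ZT3 gene when the ZT3 library of each genotype lay outside the range of the other 3 times of that genotype, on the same side in both genotypes. Of 15373 genes tested, 3820 lay above the range and 4133 below it, which makes 7953 genes (51.7%). The tested libraries were 2 of the 8 in the series: cKO eyes at ZT3, from mice with a retina-specific deletion of the glucocorticoid receptor gene Nr3c1 (Cre-positive), and WT eyes at ZT3, from mice without Cre. They were set against 3 cKO and 3 WT libraries of the later times. All mice were male, 12 weeks old, given no drug and housed under 12 h light and 12 h dark. Each library was made from RNA of 3 mice mixed in equal amounts, so a genotype at a given time is 1 library, and a p-value here measures the spread between pools around the model, not that between mice. The Cre line was not stated in these sources. The protocol names whole eyes, while the tissue field of the labels names the ciliary body. Rod markers took 6.52 to 7.77% of the counts and lens markers 14.7 to 24.0%, so the libraries are called whole eyes here. In such bulk samples, fewer cells of a type and less RNA per cell cannot be told apart.

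Several daily processes of the eye fall in the early morning. Rods shed the tips of their outer segments soon after lights-on, the pigment epithelium engulfs and digests them, light-driven dopamine replaces nocturnal melatonin, and clock genes pass from the repressed phase set by PER and CRY proteins towards renewed activation by CLOCK or NPAS2 with BMAL1. Glucocorticoids, which act through NR3C1, are lowest around this time in nocturnal rodents. Gene lists for these processes, for cell metabolism and for the cell types of the eye were therefore followed.

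The ZT3 libraries stood apart from the others as whole libraries. On the first principal component, which held 52.5% of the variance of log2(CPM + 0.5), they scored 43.3 (cKO) and 51.4 (WT), against -9.05 to 7.36 in the other cKO and -38.5 to -29.5 in the other WT libraries. CPM stands for counts in each library divided by its size after TMM adjustment. The 13 messenger RNAs of the mitochondrial genome took 6.12% and 5.49% of the counts at ZT3 in cKO and WT, against 2.08 to 3.69% in the other cKO and 1.09 to 1.35% in the other WT libraries. Lars2, which encodes the mitochondrial leucyl-tRNA synthetase, and the unannotated transcript Gm15662 together took 0.0874% and 0.0494% at ZT3, against 0.400 to 0.708% in the other cKO and 0.953 to 1.05% in the other WT libraries. Both shares separate ZT3 from the other times in each genotype; fits with each share as a covariate are given with the counts of calls. On the second component, with 24.6% of the variance, WT at ZT9 stood apart at -47.3, with the other 7 libraries between -20.2 and 24.9. Total counts ran from 11748995 to 20309611 per library. Nr3c1 checked the genotype labels: it had 38.2 CPM in cKO eyes and 78.1 CPM in WT eyes at ZT3. Nr3c1 was at 35.2, 36.4 and 32.5 CPM in cKO eyes and 145, 127 and 134 CPM in WT eyes at ZT9, ZT15 and ZT21. Every cKO library lay below every WT library, and at ZT3 the 2 genotypes were closer than at any other time.

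**Figure D1:**
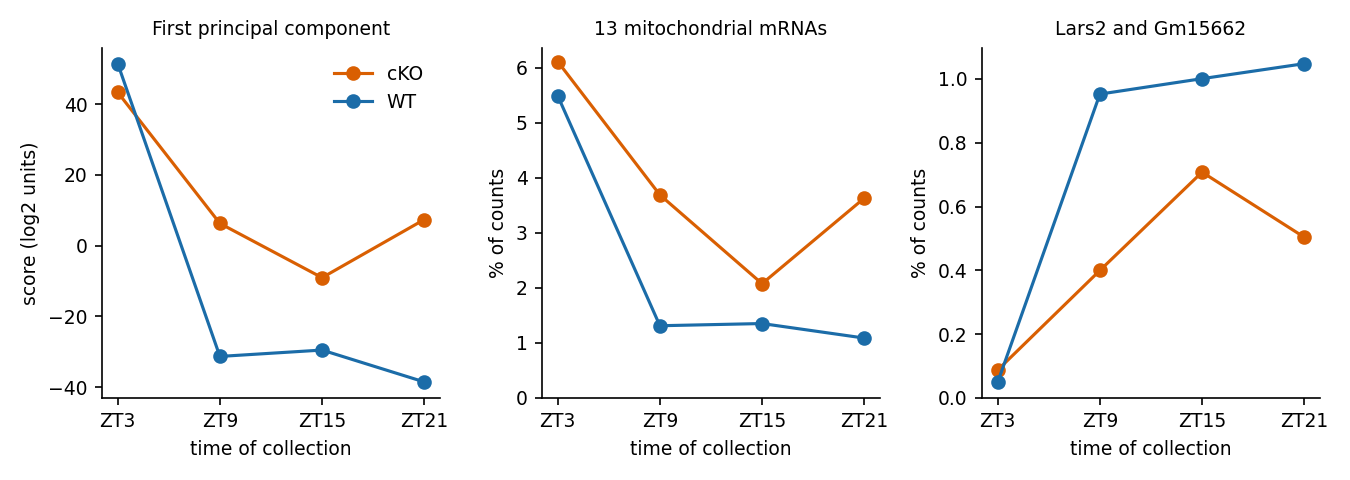
Each point is 1 library; the x axis is the time of collection, cKO in orange and WT in blue. The panels show the score on the first principal component, the share of counts in the 13 mitochondrial mRNAs and the share in Lars2 and Gm15662; both ZT3 libraries lie above all others in the first pair of panels and below all others in the third.

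At ZT3, edgeR's quasi-likelihood test with genotype as a covariate called 2365 genes higher (15.4% of those tested) and 2441 lower (15.9%) at an adjusted p under 0.05. Genes above the range in both genotypes made up 24.8% and those below 26.9%. Counts above or below the range in the gene lists that follow are to be read beside these shares. Of all genes tested, 4768 were both outside the range and called. The range rule uses the same contrast as the test, so the overlap is a description. When each other time was set against the remaining 3, the same rule found 4.51% above and 4.33% below at ZT9, 5.93% and 5.10% at ZT15, and 5.56% and 5.58% at ZT21. The edgeR test called 0 genes at each of these times, with 352, 248 and 286 genes at an unadjusted p under 0.05. DESeq2 called 1, 2 and 7 genes there and limma-voom 0. These fits hold the ZT3 libraries among the other times. With those 2 libraries left out, edgeR still called 0 genes, with 939, 364 and 393 at an unadjusted p under 0.05.

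Most ZT3 differences were small. The median log2 fold change was 0.55 among the genes above the range and -0.52 among those below, and 544 genes were called higher and 611 lower with a change of at least 1 on the log2 scale. In both genotypes the ZT3 library was at least 1.5-fold from the nearest other library in 467 genes above the range and 484 below, and at least 2-fold in 86 and 156. At the edge of the rule, 1163 genes lay outside the range by less than 0.05 on the log2 scale; among these, Nr1d1 had 165 CPM in cKO eyes and 161 CPM in WT eyes at ZT3. Nr1d1 lay at 163, 141 and 158 CPM in cKO eyes and 157, 149 and 143 CPM in WT eyes at ZT9, ZT15 and ZT21. The WT library at ZT3 carried much of the test. Without it edgeR called 0 genes, with 2753 at an unadjusted p under 0.05, limma-voom 6 and DESeq2 310, whereas without the cKO library at ZT3 edgeR called 2112 higher and 2261 lower. With both ZT15 libraries left out the counts were 909 and 677. All calls on single genes and lists given below are likewise lost without the WT library at ZT3, and counts of calls in a list are to be read beside the 15.4% of all tested genes called higher and the 15.9% called lower. With the log2 share of mitochondrial mRNAs as a further covariate edgeR called 0 genes (498 unadjusted; DESeq2 1, limma-voom 0), and with that of Lars2 and Gm15662 also 0 (256 unadjusted; 0 in both other tools). Neither share overlaps between ZT3 and the other times, so the time of day and what these shares measure cannot be told apart.

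**Figure D2:**
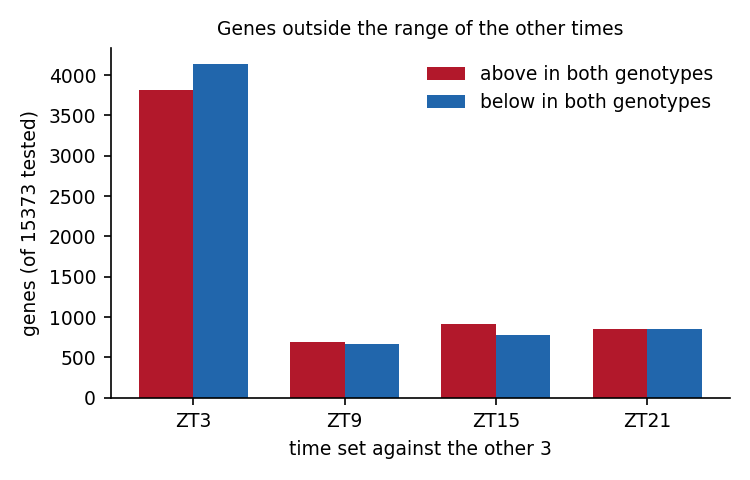
Bars count the genes that lie outside the range of the other 3 times in both genotypes when each time (x axis) is set against the rest, above in red and below in blue. ZT3 has 3820 and 4133 genes, and no other time exceeds 912.

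Among the genes with the smallest p that were at least 1 log2 unit higher at ZT3, Hnrnpl, a splicing regulator, had 106 CPM in cKO eyes and 196 CPM in WT eyes at ZT3. Hnrnpl measured 36.4, 34.9 and 38.3 CPM in cKO eyes and 43.1, 48.4 and 31.98 CPM in WT eyes at ZT9, ZT15 and ZT21. Both ZT3 libraries were above all 6 others, and the difference was called (log2 fold change 1.92, SE 0.17, adjusted p 0.0028). Msi1, the RNA-binding protein Musashi of neural progenitors and photoreceptors, had 206 CPM in cKO eyes and 285 CPM in WT eyes at ZT3. Msi1 stood at 84.1, 71.98 and 84.2 CPM in cKO eyes and 70.2, 78.9 and 59.2 CPM in WT eyes at ZT9, ZT15 and ZT21 (log2 fold change 1.72, SE 0.16, adjusted p 0.0028). Rara, a retinoic acid receptor, had 26.4 CPM in cKO eyes and 30.5 CPM in WT eyes at ZT3. Rara was at 9.801, 11.04 and 12.3 CPM in cKO eyes and 10.6, 11.1 and 10.9 CPM in WT eyes at ZT9, ZT15 and ZT21 (log2 fold change 1.37, SE 0.12, adjusted p 0.0028). The groups did not overlap for either gene. Ugcg, which makes glucosylceramide, had 48.7 CPM in cKO eyes and 52.7 CPM in WT eyes at ZT3, against 15.6 to 22.4 CPM at the other times (log2 fold change 1.37). Ptprs, a receptor phosphatase for proteoglycans, had 99.3 CPM in cKO eyes and 156 CPM in WT eyes at ZT3, against 32.8 to 49.2 CPM at the other times (1.71). Furin, a protease of the secretory pathway, had 58.7 CPM in cKO eyes and 66.7 CPM in WT eyes at ZT3, against 18.6 to 28.8 CPM at the other times (1.48). Khsrp, Phf21b, Rnf207, Rabgef1 and Zscan26 were also among the 12 genes with the smallest p, with log2 fold changes of 1.184 to 1.502. Gm3608, annotated as a pseudogene, had the largest gap, with 13.3 CPM in cKO eyes and 7.198 CPM in WT eyes at ZT3, against 0.355 to 1.07 CPM at the other times.

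Other genes with wide gaps above the range were Upf1, the helicase of nonsense-mediated decay, with 55.9 CPM in cKO eyes and 70.3 CPM in WT eyes at ZT3, against 10.7 to 22.3 CPM at the other times, Tpbg, a surface glycoprotein, with 13.6 CPM in cKO eyes and 14.3 CPM in WT eyes at ZT3, against 2.28 to 4.41 CPM at the other times, Slc34a2, a phosphate transporter, with 10.2 CPM in cKO eyes and 10 CPM in WT eyes at ZT3, against 1.99 to 3.61 CPM at the other times, and Cyp4f17 of the cytochrome P450 family, with 9.81 CPM in cKO eyes and 12.2 CPM in WT eyes at ZT3, against 1.63 to 3.54 CPM at the other times. Their log2 fold changes were 1.81, 2.13, 1.74 and 1.91, and all 4 were called.

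Lars2, Gm15662 and several pseudogenes had the widest gaps below the range. Lars2 had 604 CPM in cKO eyes and 297 CPM in WT eyes at ZT3. Lars2 lay at 2747, 4675 and 3551 CPM in cKO eyes and 5723, 6196 and 6561 CPM in WT eyes at ZT9, ZT15 and ZT21. Gm15662 had 315 CPM in cKO eyes and 162 CPM in WT eyes at ZT3. Gm15662 measured 1722, 2447 and 1945 CPM in cKO eyes and 3108, 3101 and 3578 CPM in WT eyes at ZT9, ZT15 and ZT21. In both, the ZT3 libraries lay far below every other library (log2 fold change -3.35, SE 0.45, adjusted p 0.0035 for Lars2, log2 fold change -3.40, SE 0.40, adjusted p 0.0029 for Gm15662). Lars2 and Gm15662 rose and fell nearly together over the libraries. Whether they are separate signals was not tested, so the counts given to Lars2 are uncertain as a level of its mRNA. Lars2 lies on chromosome 9 from 123366927 to 123462666 on the plus strand (GRCm38, GENCODE M21). Gm12895, Gm12896 and RP23-402O17.1 had identical counts in every library, 19.1 CPM in cKO eyes and 12.1 CPM in WT eyes at ZT3, against 99.6 to 307 CPM at the other times, and are counted here as 1 uncertain signal. Among coding genes with the smallest p, Igf2bp2, an mRNA-binding protein, had 6.88 CPM in cKO eyes and 7.69 CPM in WT eyes at ZT3. Igf2bp2 stood at 13.9, 15.8 and 14.2 CPM in cKO eyes and 17.6, 20.1 and 19.04 CPM in WT eyes at ZT9, ZT15 and ZT21 (log2 fold change -1.19, SE 0.13, adjusted p 0.0028). Fas, the death receptor, had 8.09 CPM in cKO eyes and 6.41 CPM in WT eyes at ZT3. Fas was at 17.7, 20.5 and 17.4 CPM in cKO eyes and 15.8, 18.4 and 20.5 CPM in WT eyes at ZT9, ZT15 and ZT21 (log2 fold change -1.34, SE 0.16, adjusted p 0.0029). Both were lower in each ZT3 library than in any other. Palm2 had 19.6 CPM in cKO eyes and 19.2 CPM in WT eyes at ZT3, against 43 to 71.7 CPM at the other times (log2 fold change -1.48), Pkp2, a desmosome plaque protein, had 20.6 CPM in cKO eyes and 19.1 CPM in WT eyes at ZT3, against 35.8 to 47.8 CPM at the other times (-1.03), and Zan had 16.6 CPM in cKO eyes and 21.6 CPM in WT eyes at ZT3, against 32.6 to 76.8 CPM at the other times (-1.45). Capn12, a calpain protease, had 0.637 CPM in cKO eyes and 0.793 CPM in WT eyes at ZT3, against 2.42 to 6.39 CPM at the other times (-2.56). Gm10163, Gm10038, Gm11960 and Gm18716, annotated as pseudogenes, RP23-281F13.1, and Gm10277, which is annotated as coding, filled the remaining places, with log2 fold changes of -2.0 to -3.505.

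**Figure D3:**
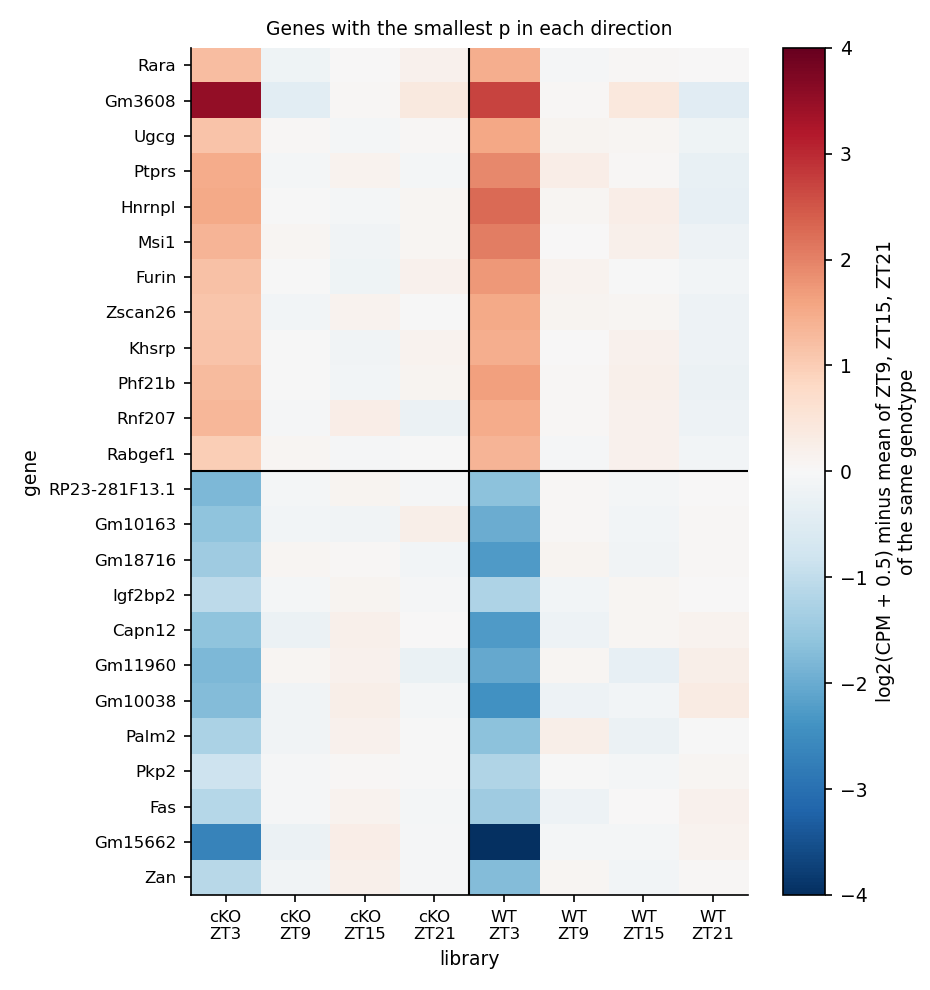
Colour gives log2(CPM + 0.5) minus the mean of ZT9, ZT15 and ZT21 of the same genotype, with genes down the page and the 8 libraries across, cKO left of WT. The 12 upper genes are red in both ZT3 columns, the 12 lower genes blue, and the other columns are pale.

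Clock genes were followed in 4 lists. Npas2, the paralog of Clock that pairs with BMAL1, had 4.01 CPM in cKO eyes and 6.65 CPM in WT eyes at ZT3. Npas2 lay at 1.27, 1.251 and 2.002 CPM in cKO eyes and 1.58, 0.903 and 1.28 CPM in WT eyes at ZT9, ZT15 and ZT21. It was highest in both ZT3 libraries, by far the largest clock difference (log2 fold change 1.93, SE 0.29, adjusted p 0.0040). Per1, a repressor of the loop and also a light and glucocorticoid target, had 41.7 CPM in cKO eyes and 43.8 CPM in WT eyes at ZT3. Per1 measured 33.9, 32.6 and 28.6 CPM in cKO eyes and 33.5, 34.6 and 26.7 CPM in WT eyes at ZT9, ZT15 and ZT21 (log2 fold change 0.43, SE 0.12, adjusted p 0.026). Nfil3, the repressor that opposes the D-box activators, was lower, with 11.72 CPM in cKO eyes and 10.7 CPM in WT eyes at ZT3. Nfil3 stood at 13.5, 19.4 and 17.15 CPM in cKO eyes and 14.7, 21.7 and 23.7 CPM in WT eyes at ZT9, ZT15 and ZT21 (log2 fold change -0.70, SE 0.22, adjusted p 0.038). Usp2, a deubiquitinase of clock proteins, had 85.9 CPM in cKO eyes and 82.4 CPM in WT eyes at ZT3, against 99.2 to 209.6 CPM at the other times (log2 fold change -0.71, SE 0.20, adjusted p 0.026). These 4 were the clock genes called. Cry1, Cry2, Tef, Hlf, Btrc and Nr1d1 lay above the range and Rora, Ciart, Timeless and Csnk1e below it without passing the test, with adjusted p from 0.055 to 0.46. Arntl (log2 fold change 0.13), Clock (-0.27), Per2 (-0.04), Per3 (0.14), Dbp (-0.45) and Nr1d2 (0.28) were not outside the range.

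The dopamine receptor genes Drd4 and Drd2 were lower at ZT3. Drd4, the dopamine receptor of photoreceptors and a night-peaking retinal transcript, had 101 CPM in cKO eyes and 68.8 CPM in WT eyes at ZT3. Drd4 was at 129, 296 and 337 CPM in cKO eyes and 141, 339 and 501 CPM in WT eyes at ZT9, ZT15 and ZT21. It was lowest at ZT3 and highest at ZT21 in each genotype (log2 fold change -1.75, SE 0.53, adjusted p 0.035). Drd2 had 14.2 CPM in cKO eyes and 13.97 CPM in WT eyes at ZT3. Drd2 lay at 22.6, 26.1 and 25.8 CPM in cKO eyes and 17.99, 23.8 and 29.6 CPM in WT eyes at ZT9, ZT15 and ZT21 (log2 fold change -0.79, SE 0.18, adjusted p 0.013). Gnal, the stimulatory G protein subunit, was higher, with 22.04 CPM in cKO eyes and 22.1 CPM in WT eyes at ZT3, against 11.5 to 15.5 CPM at the other times (log2 fold change 0.70, SE 0.11, adjusted p 0.0047), and Adcy6, an adenylyl cyclase, likewise, with 69.9 CPM in cKO eyes and 90.03 CPM in WT eyes at ZT3, against 46.8 to 69.6 CPM at the other times (log2 fold change 0.43, SE 0.11, adjusted p 0.018). Aanat, the melatonin enzyme (log2 fold change -0.47), and Th, the dopamine enzyme (0.43), were not outside the range. Of 12 measured genes of that list, 4 lay above (33.3%, beside 24.8% of all genes) and 2 below (16.7%, beside 26.9%).

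Among 20 genes induced by glucocorticoids, 6 lay above the range (30%, beside 24.8% of all genes) and 2 below (10%, beside 26.9%). Of these 20, 3 were called higher and 1 lower. Their median log2 fold change was 0.09, beside -0.02 over all genes. Without the cKO library at ZT3 that median was 0.01, with 1 called higher. Tsc22d3, which encodes GILZ, had 25.7 CPM in cKO eyes and 25.1 CPM in WT eyes at ZT3. Tsc22d3 measured 12.8, 14.9 and 17.9 CPM in cKO eyes and 8.36, 12.9 and 7.53 CPM in WT eyes at ZT9, ZT15 and ZT21 (log2 fold change 1.08, SE 0.22, adjusted p 0.0087). It was higher at ZT3 in the cKO as well as in the WT. Ddit4 was called too (log2 fold change 0.51, SE 0.16, adjusted p 0.041), and Klf9 was lower, with 64.2 CPM in cKO eyes and 67.4 CPM in WT eyes at ZT3, against 73.5 to 164 CPM at the other times (log2 fold change -0.74, SE 0.20, adjusted p 0.024). Fkbp5 (log2 fold change -0.38), Sgk1 (0.21) and Zbtb16 (-0.29) were not called. Of 20 immediate early genes, 4 lay above and 2 below, and the called ones were Fosl2 (log2 fold change 1.22, SE 0.30, adjusted p 0.017) and Jun (log2 fold change 0.54, SE 0.15, adjusted p 0.025), both higher, and Klf6, which was lower (log2 fold change -0.45, SE 0.14, adjusted p 0.045). Fos (-0.46) and Egr1 (-0.96) were not outside the range. Cold-inducible RNA-binding proteins were mostly higher: 5 of 6 lay above the range and 3 were called. Cirbp had 119.1 CPM in cKO eyes and 103 CPM in WT eyes at ZT3. Cirbp stood at 91.7, 44.3 and 62.8 CPM in cKO eyes and 46.5, 43.7 and 39.2 CPM in WT eyes at ZT9, ZT15 and ZT21 (log2 fold change 1.05, SE 0.22, adjusted p 0.0097). Srsf5 was called too (log2 fold change 0.95, SE 0.16, adjusted p 0.0056). Rbm3, the other classical cold-shock protein, was not outside the range (-0.05).

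Of 24 genes of cholesterol synthesis, 13 lay above the range (54.2%, beside 24.8% of all genes) and 1 below. Of these 24, 10 were called, all of them higher, and the median log2 fold change was 0.29. Insig1, which holds SREBP in the endoplasmic reticulum when sterols are plentiful, had 109.5 CPM in cKO eyes and 118 CPM in WT eyes at ZT3. Insig1 was at 53.2, 32.5 and 47.6 CPM in cKO eyes and 27.5, 26.2 and 21.1 CPM in WT eyes at ZT9, ZT15 and ZT21. Hmgcs1, an early synthase of the pathway, had 162 CPM in cKO eyes and 168 CPM in WT eyes at ZT3. Hmgcs1 lay at 102, 78.3 and 101 CPM in cKO eyes and 62.3, 63.3 and 50.02 CPM in WT eyes at ZT9, ZT15 and ZT21. In both genes the ZT3 libraries lay above the 6 others (log2 fold change 1.80, SE 0.22, adjusted p 0.0032 for Insig1, log2 fold change 1.18, SE 0.18, adjusted p 0.0040 for Hmgcs1). Sc5d, Stard4, Acat2, Lss and Cyp51 were called with log2 fold changes of 0.29 to 0.92. The pathway did not move as one: Sqle (log2 fold change -0.01) and Fdft1 (-0.15) were not outside the range, and Fdps lay below it. In fatty acid synthesis, 10 of 14 genes lay above and 1 below, and the 5 called were all higher (9 called without the WT library at ZT9, 3 without the cKO library at ZT15). Elovl5, an elongase of polyunsaturated fatty acids, had 34.97 CPM in cKO eyes and 41.4 CPM in WT eyes at ZT3. Elovl5 measured 22.1, 19.6 and 24.1 CPM in cKO eyes and 16.2, 17.4 and 14.5 CPM in WT eyes at ZT9, ZT15 and ZT21 (log2 fold change 1.04, SE 0.16, adjusted p 0.0041). Called with it were the desaturases Scd1 (log2 fold change 1.02, SE 0.22, adjusted p 0.010) and Scd2 (log2 fold change 0.74, SE 0.17, adjusted p 0.012), Elovl2 (log2 fold change 0.41, SE 0.11, adjusted p 0.026) and the regulator Srebf1 (log2 fold change 0.35, SE 0.10, adjusted p 0.030). Fasn was not called (log2 fold change 0.33, SE 0.11, adjusted p 0.056).

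Promoters of Per1, Insig1 and Hmgcs1 are shown because these 3 genes, each called higher, hold clock or sterol motifs within 250 bases before to 50 after an annotated start (RefSeq, GRCm38.p6). Capitals mark any of 6 searched motifs on either strand: the E-box CACGTG, the element AGGTCA of ROR and REV-ERB factors, the D-box TTATGTAA or TTACATAA, the sterol element TCACNCCAC, the heat shock element GAANNTTC and the cyclic AMP element TGACGTCA.
Per1: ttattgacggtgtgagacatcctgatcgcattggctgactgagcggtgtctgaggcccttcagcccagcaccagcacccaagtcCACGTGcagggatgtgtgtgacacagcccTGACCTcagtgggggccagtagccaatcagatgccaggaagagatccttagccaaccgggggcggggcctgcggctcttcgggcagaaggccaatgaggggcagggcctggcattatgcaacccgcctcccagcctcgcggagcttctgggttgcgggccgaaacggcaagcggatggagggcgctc
Insig1: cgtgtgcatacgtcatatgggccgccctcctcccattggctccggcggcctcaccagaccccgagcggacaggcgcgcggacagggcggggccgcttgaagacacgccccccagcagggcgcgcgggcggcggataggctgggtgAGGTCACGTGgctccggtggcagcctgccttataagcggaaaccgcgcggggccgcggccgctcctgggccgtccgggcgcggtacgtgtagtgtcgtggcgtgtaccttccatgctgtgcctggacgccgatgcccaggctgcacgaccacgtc
Hmgcs1: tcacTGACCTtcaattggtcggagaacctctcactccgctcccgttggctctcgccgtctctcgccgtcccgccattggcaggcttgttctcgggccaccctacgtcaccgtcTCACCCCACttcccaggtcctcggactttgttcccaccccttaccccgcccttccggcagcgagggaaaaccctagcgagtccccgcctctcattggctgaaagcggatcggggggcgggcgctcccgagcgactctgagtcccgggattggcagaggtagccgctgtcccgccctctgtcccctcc
Per1 lies at chr11:69098699-69098998 on the plus strand, with an E-box that starts 166 bases before the start site and an inverted AGGTCA 137 bases before it. The window of a second annotated Per1 start, chr11:69099902-69100201, held none of the 6 motifs, nor did that of Npas2. Insig1 lies at chr5:28071162-28071461 on the plus strand, and its AGGTCA and E-box, 105 and 101 bases before the start, share 2 letters. Hmgcs1 lies at chr13:119690101-119690400 on the plus strand, with an inverted AGGTCA 246 bases and a sterol element 137 bases before the start. A match is a description of letters, not a bound site. Across 14575 promoters of 11389 tested genes, the share with a motif differed little by direction: the E-box stood in 9.57% of promoters of genes above the range, 9.10% of those below and 9.19% of all, and the sterol element in 1.10%, 1.10% and 1.12%. Of 16 sterol genes with a promoter in the table, 1 held the sterol element. The heat shock element stood in 4.86% of promoters above, 6.35% below and 5.85% of all, the AGGTCA element in 444 of 3803, 485 of 3813 and 1870 of 14575, the D-box in 0.578%, 0.603% and 0.611%, and the cyclic AMP element in 2.73%, 3.07% and 2.84%.

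Transcripts of the mitochondrial genome were higher at ZT3 without exception. All 13 lay above the range and were called, with a median log2 fold change of 1.55. mt-Atp6, a subunit of ATP synthase, had 6549 CPM in cKO eyes and 5469 CPM in WT eyes at ZT3. mt-Atp6 stood at 3376, 1633 and 3134 CPM in cKO eyes and 779.8, 849 and 619 CPM in WT eyes at ZT9, ZT15 and ZT21 (log2 fold change 2.18, SE 0.35, adjusted p 0.0047). mt-Cytb of complex III had 8501 CPM in cKO eyes and 6929 CPM in WT eyes at ZT3. mt-Cytb was at 4708, 2226 and 4549 CPM in cKO eyes and 1302, 1282 and 898 CPM in WT eyes at ZT9, ZT15 and ZT21 (log2 fold change 1.95, SE 0.35, adjusted p 0.0060). mt-Nd5 had the smallest change (log2 fold change 0.75, SE 0.15, adjusted p 0.0085) and mt-Atp8 the largest (log2 fold change 2.52, SE 0.33, adjusted p 0.0034). Nuclear genes of the respiratory chain leaned the other way. Of 36 such genes, 18 lay below the range and 3 above. Of the 36, 11 were called lower and 1 higher, and the median was -0.20. Without the WT library at ZT15, 5 were called lower. Ndufa2 of complex I had 49.3 CPM in cKO eyes and 30.4 CPM in WT eyes at ZT3. Ndufa2 lay at 80.6, 87.4 and 75.8 CPM in cKO eyes and 65.3, 81.99 and 88.5 CPM in WT eyes at ZT9, ZT15 and ZT21 (log2 fold change -1.03, SE 0.18, adjusted p 0.0057), and Sdhb of complex II had 60.3 CPM in cKO eyes and 45.5 CPM in WT eyes at ZT3, against 73.4 to 88.2 CPM at the other times (log2 fold change -0.67, SE 0.12, adjusted p 0.0065). Cox6c was the 1 called higher (log2 fold change 0.35, SE 0.11, adjusted p 0.046). With the trend of length and GC content removed, 13 of the 36 lay below and 10 above, and their median became -0.06. Of 19 genes for mitochondrial gene expression and import, 4 lay above and 3 below; Mterf1a, a transcription termination factor, was called higher (log2 fold change 1.496, SE 0.20, adjusted p 0.0035), and the import channel genes Timm23 (log2 fold change -0.998, SE 0.14, adjusted p 0.0039) and Tomm40 (log2 fold change -0.80, SE 0.15, adjusted p 0.0072) and the chaperonin Hspe1 (log2 fold change -0.59, SE 0.16, adjusted p 0.026) were called lower.

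Of 36 cytosolic ribosomal protein genes, 27 lay below the range (75%, beside 26.9% of all genes), the rest inside it, 16 were called, all of them lower (28 without the WT library at ZT9), and the median log2 fold change was -0.43. Rps14 had 409 CPM in cKO eyes and 244 CPM in WT eyes at ZT3. Rps14 measured 755, 809.5 and 748 CPM in cKO eyes and 622, 716 and 822 CPM in WT eyes at ZT9, ZT15 and ZT21 (log2 fold change -1.22, SE 0.18, adjusted p 0.0039). Rplp2 had 279 CPM in cKO eyes and 176 CPM in WT eyes at ZT3, against 314 to 474 CPM at the other times (-0.92). In these genes both ZT3 libraries lay below the 6 others. Such genes have many near-identical pseudogene copies, which could share reads with them. Of 27 proteasome genes, 24 lay below (88.9%), the rest inside, and 18 were called, all lower, with a median of -0.46 (-0.27 without the WT library at ZT3). Psmc1, an ATPase of the regulatory cap, had 119.6 CPM in cKO eyes and 87.8 CPM in WT eyes at ZT3. Psmc1 stood at 219, 218 and 203 CPM in cKO eyes and 185, 219.8 and 247 CPM in WT eyes at ZT9, ZT15 and ZT21 (log2 fold change -1.06, SE 0.16, adjusted p 0.0039). Psmd1 (log2 fold change -1.10, SE 0.18, adjusted p 0.0051) and Psmb7 (log2 fold change -1.12, SE 0.21, adjusted p 0.0066) fell by more than 1 log2 unit as well. Of 17 translation factors, 10 lay below and 3 above, and 10 were called lower and 2 higher. Eef1d (log2 fold change -1.31, SE 0.19, adjusted p 0.0039) and the poly(A)-binding protein gene Pabpc1, with 587 CPM in cKO eyes and 470.2 CPM in WT eyes at ZT3, against 1069 to 1485 CPM at the other times (log2 fold change -1.18, SE 0.17, adjusted p 0.0039), led the lower ones, and Eif4g1 (log2 fold change 0.36, SE 0.11, adjusted p 0.034) and Eif4a2 (log2 fold change 0.33, SE 0.10, adjusted p 0.039) were the higher ones. Of 23 tRNA synthetases and other targets of ATF4, 15 lay below and 3 above, with 8 called lower, Sars foremost (log2 fold change -0.81, SE 0.14, adjusted p 0.0054), and 2 higher, Atf4 itself (log2 fold change 0.86, SE 0.19, adjusted p 0.011) and Ddit4. In that list 3 to 5 genes were called lower without the WT library at ZT15 or the cKO library at ZT3, ZT9 or ZT15. Removal of the length and GC trend left 18 of 36 ribosomal and 17 of 27 proteasome genes below the range, with medians of -0.23 and -0.32.

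**Figure D4:**
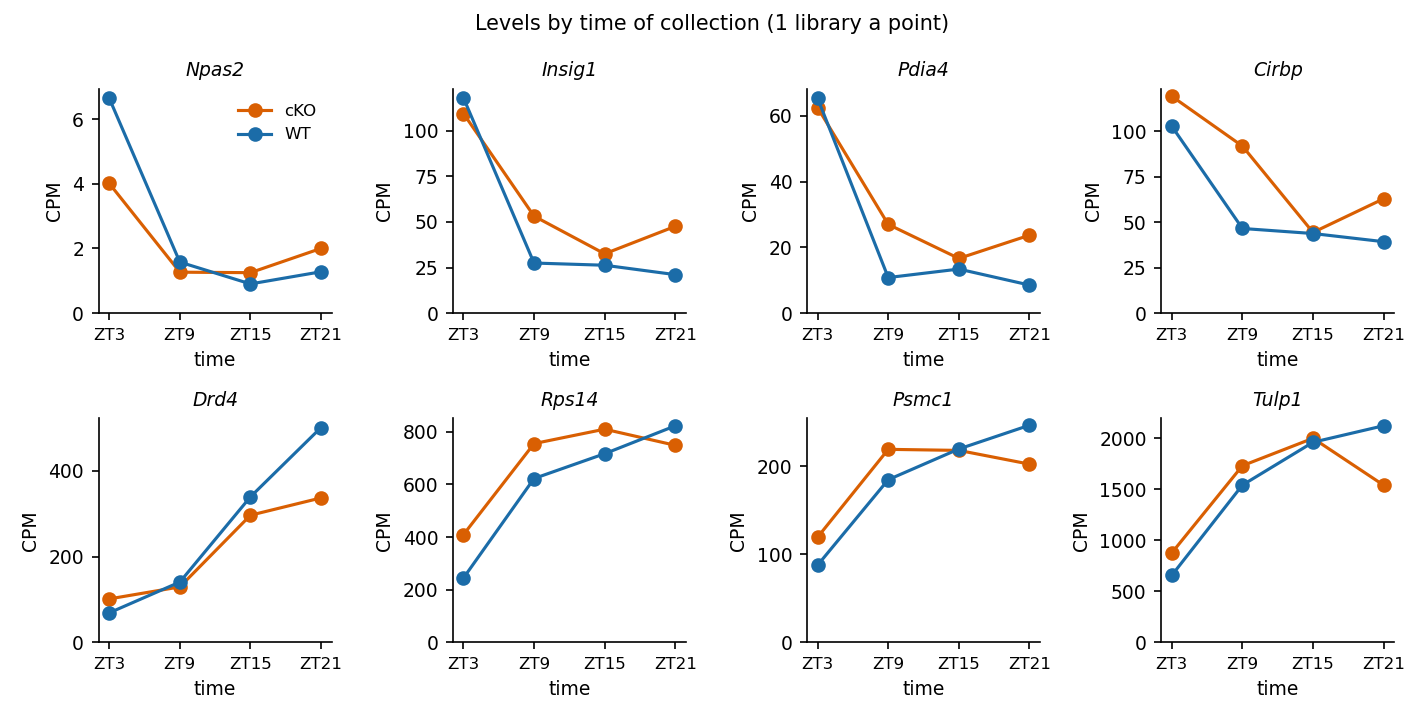
Each point is the CPM of 1 library by time of collection, cKO in orange and WT in blue, with a y axis from 0 in each panel. Npas2, Insig1, Pdia4 and Cirbp are highest at ZT3 in both genotypes, and Drd4, Rps14, Psmc1 and Tulp1 lowest.

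Chaperones of the endoplasmic reticulum split. Of 18 genes of that list, 7 lay above the range and 4 below, with 7 called higher and 1 lower. Pdia4, a disulfide isomerase, had 62.5 CPM in cKO eyes and 65.3 CPM in WT eyes at ZT3. Pdia4 was at 26.98, 16.6 and 23.7 CPM in cKO eyes and 10.8, 13.4 and 8.53 CPM in WT eyes at ZT9, ZT15 and ZT21 (log2 fold change 2.06, SE 0.25, adjusted p 0.0032). Hyou1 had 57.5 CPM in cKO eyes and 63.1 CPM in WT eyes at ZT3, against 13 to 32.2 CPM at the other times (log2 fold change 1.60, SE 0.22, adjusted p 0.0037) and Canx, the lectin calnexin, had 299 CPM in cKO eyes and 314 CPM in WT eyes at ZT3, against 101 to 157 CPM at the other times (log2 fold change 1.31, SE 0.14, adjusted p 0.0028). Sdf2l1, Pdia3, Edem1 and Dnajc3 were also called higher, with log2 fold changes of 0.46 to 1.06. Pdia6 was called lower (log2 fold change -0.48, SE 0.12, adjusted p 0.021), and Hspa5 (-0.28) and Herpud1 (-0.17) were not called. Of 19 cytosolic heat shock genes, 6 lay below (31.6%, near the 26.9% of all genes) and 1 above, and 2 were called lower (6 without the WT library at ZT9) and 1 higher. Dnajb1 (log2 fold change -0.72, SE 0.12, adjusted p 0.0054) and Hspb1, with 626 CPM in cKO eyes and 452 CPM in WT eyes at ZT3, against 652 to 1035 CPM at the other times (log2 fold change -0.71, SE 0.13, adjusted p 0.0069), were called lower and Hspa4 higher (log2 fold change 0.45, SE 0.12, adjusted p 0.020).

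In the list of glycolysis and fuel transport, 5 of 24 genes lay above (20.8%) and 3 below (12.5%), smaller shares than the 24.8% and 26.9% of all genes. The monocarboxylate transporter Slc16a1 had 201 CPM in cKO eyes and 186 CPM in WT eyes at ZT3. Slc16a1 lay at 124, 95.02 and 118 CPM in cKO eyes and 79.5, 86.2 and 67.2 CPM in WT eyes at ZT9, ZT15 and ZT21 (log2 fold change 1.06, SE 0.14, adjusted p 0.0036). The glucose transporters Slc2a1, with 338 CPM in cKO eyes and 349.9 CPM in WT eyes at ZT3, against 152 to 262 CPM at the other times (log2 fold change 0.76, SE 0.15, adjusted p 0.0079), and Slc2a3 (log2 fold change 0.63, SE 0.10, adjusted p 0.0050), and the kinase Pdk1 (log2 fold change 0.75, SE 0.17, adjusted p 0.013) were higher too, while Slc16a3, which exports lactate, was lower (log2 fold change -1.19, SE 0.38, adjusted p 0.043). None of the cytosolic enzymes of the list was called; Gapdh had a log2 fold change of -0.09 and Ldha of -0.44. Interferon and antigen presentation genes were mixed, with 6 of 22 above (27.3%, near the share of all genes) and 4 below (18.2%). Of the 22, 4 were called higher and 3 lower. B2m (log2 fold change 0.80, SE 0.15, adjusted p 0.0065) and H2-K1 (log2 fold change 0.58, SE 0.15, adjusted p 0.019) were higher. Ifit1 (log2 fold change -1.17, SE 0.31, adjusted p 0.022) and Usp18 (log2 fold change -0.68, SE 0.20, adjusted p 0.030) were lower. Of 22 collagen and matrix genes, 8 lay above and 1 below, and the 4 called were Col12a1 (log2 fold change 1.13, SE 0.36, adjusted p 0.044), Col18a1, the source of endostatin (log2 fold change 0.88, SE 0.14, adjusted p 0.0047), Fbn1 (log2 fold change 0.67, SE 0.11, adjusted p 0.0050) and Col8a1 (log2 fold change 0.51, SE 0.09, adjusted p 0.0065), all higher.

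Genes for uptake of shed outer segments and for lysosomal digestion gave 8 above and 7 below of 24. These shares, 33.3% and 29.2%, were near the 24.8% and 26.9% of all genes. Itgav, a subunit of the integrin that binds the segments, had 68.5 CPM in cKO eyes and 89 CPM in WT eyes at ZT3. Itgav measured 30.1, 33.6 and 33.1 CPM in cKO eyes and 69.9, 27.1 and 17.05 CPM in WT eyes at ZT9, ZT15 and ZT21 (log2 fold change 1.16, SE 0.39, adjusted p 0.049). The scavenger receptor Cd36 (log2 fold change 1.10, SE 0.27, adjusted p 0.016), Ctsb (log2 fold change 0.66, SE 0.15, adjusted p 0.013) and Lamp2 (log2 fold change 0.40, SE 0.11, adjusted p 0.025) were higher as well. Mfge8, the bridging ligand of that integrin, was lower (log2 fold change -0.77, SE 0.15, adjusted p 0.0073), as were Tfeb (log2 fold change -0.47, SE 0.13, adjusted p 0.025) and the photoreceptor protein gene Tulp1, with 877 CPM in cKO eyes and 657 CPM in WT eyes at ZT3. Tulp1 stood at 1732, 2001 and 1541 CPM in cKO eyes and 1542, 1962 and 2124 CPM in WT eyes at ZT9, ZT15 and ZT21 (log2 fold change -1.247, SE 0.20, adjusted p 0.0047). Mertk, the receptor that triggers engulfment, lay below the range without passing the test (log2 fold change -0.38, SE 0.17, adjusted p 0.13). In the visual cycle, 8 of 16 genes lay above and 4 below. Rlbp1, which carries retinal in Müller glia and pigment epithelium, had 376 CPM in cKO eyes and 339 CPM in WT eyes at ZT3. Rlbp1 was at 275, 191 and 259 CPM in cKO eyes and 133, 149 and 138 CPM in WT eyes at ZT9, ZT15 and ZT21 (log2 fold change 0.97, SE 0.17, adjusted p 0.0058). Lrat, which esterifies vitamin A, had 95.99 CPM in cKO eyes and 112 CPM in WT eyes at ZT3, against 29.3 to 63.6 CPM at the other times (log2 fold change 0.96, SE 0.23, adjusted p 0.016), and Stra6, Rgr, Ttr, Dhrs3 and Rdh10 were called higher with log2 fold changes of 0.60 to 0.82. The photoreceptor members Abca4 (log2 fold change -0.43, SE 0.12, adjusted p 0.026) and Rdh12 (log2 fold change -0.39, SE 0.12, adjusted p 0.042) were lower, and Rpe65, the isomerase, was not outside the range (0.11).

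Of 24 rod genes, 7 lay below (29.2%, near the 26.9% of all genes) and 3 above (12.5%), with 4 called lower and 3 higher. Sag, which encodes rod arrestin, had 3409 CPM in cKO eyes and 2664 CPM in WT eyes at ZT3. Sag lay at 7171, 5231 and 3439 CPM in cKO eyes and 5881, 6109 and 4565 CPM in WT eyes at ZT9, ZT15 and ZT21. The cKO library at ZT3 was only just below that at ZT21 (log2 fold change -0.83, SE 0.28, adjusted p 0.050). Pde6a (log2 fold change -0.76, SE 0.18, adjusted p 0.014), Cnga1 (log2 fold change -0.79, SE 0.20, adjusted p 0.019) and Reep6 (log2 fold change -0.62, SE 0.12, adjusted p 0.0082) were lower and the kinase Grk1 (log2 fold change 0.50, SE 0.12, adjusted p 0.016), the cyclase Gucy2e (log2 fold change 0.73, SE 0.14, adjusted p 0.0080) and Nr2e3 (log2 fold change 0.50, SE 0.14, adjusted p 0.031) higher. Of 16 cone genes, 4 lay above (25%, near the 24.8% of all genes) and 3 below (18.8%). Opn1sw, the short-wavelength opsin, had 289.6 CPM in cKO eyes and 245 CPM in WT eyes at ZT3. Opn1sw measured 191, 131 and 213 CPM in cKO eyes and 81.8, 70.4 and 91.2 CPM in WT eyes at ZT9, ZT15 and ZT21 (log2 fold change 1.18, SE 0.22, adjusted p 0.0070). Cnnm4, a magnesium transporter, had 49.3 CPM in cKO eyes and 57.7 CPM in WT eyes at ZT3, against 17.08 to 23.1 CPM at the other times (log2 fold change 1.41, SE 0.14, adjusted p 0.0028), and cone arrestin Arr3 was lower (log2 fold change -0.58, SE 0.16, adjusted p 0.026). Opn1mw was not outside the range (-0.45).

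Of 15 amacrine genes, 8 lay above (53.3%, beside 24.8% of all genes) and 2 below, 7 were called higher and 1 lower. The GABA-synthesizing Gad1 had 136.4 CPM in cKO eyes and 137 CPM in WT eyes at ZT3. Gad1 stood at 109, 93.2 and 102 CPM in cKO eyes and 78.1, 81.6 and 76.2 CPM in WT eyes at ZT9, ZT15 and ZT21 (log2 fold change 0.62, SE 0.11, adjusted p 0.0064). Gad2 (log2 fold change 0.82, SE 0.18, adjusted p 0.012), which has the same role, and the vesicle transporter Slc32a1 (log2 fold change 0.44, SE 0.11, adjusted p 0.016) were higher. Ganglion cell genes gave 8 above and 2 below of 17, with 7 called higher (4 without the WT or the cKO library at ZT15), among them Pou4f2 (log2 fold change 0.95, SE 0.19, adjusted p 0.0080), Thy1 (log2 fold change 0.86, SE 0.17, adjusted p 0.0085) and Rbpms (log2 fold change 0.59, SE 0.09, adjusted p 0.0047), with Elavl4 lower (log2 fold change -0.51, SE 0.14, adjusted p 0.023). Horizontal cell genes gave 4 below and 1 above of 6. Onecut2 was lower, with 5.99 CPM in cKO eyes and 7.81 CPM in WT eyes at ZT3 (log2 fold change -1.63, SE 0.36, adjusted p 0.012). At the other times Onecut2 was at 44.4 CPM in WT eyes at ZT9 and at 11.3 to 20.8 CPM in the remaining libraries. Lhx1 was lower (log2 fold change -0.76, SE 0.17, adjusted p 0.011) and Calb1 higher (log2 fold change 0.36, SE 0.12, adjusted p 0.048). Of 15 bipolar cell genes, 2 lay above and 2 below; Grm6, the glutamate receptor of ON bipolar cells, was higher (log2 fold change 1.14, SE 0.16, adjusted p 0.0039) and Otx2 lower (log2 fold change -0.82, SE 0.18, adjusted p 0.011).

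Glial, pigmented and ciliary lists each had a larger share above the range than the 24.8% of all genes tested. Of 18 Müller glia genes, 11 lay above and 3 below. Clu had 1245 CPM in cKO eyes and 1169 CPM in WT eyes at ZT3. Clu was at 1008, 689.7 and 952 CPM in cKO eyes and 382, 433 and 459 CPM in WT eyes at ZT9, ZT15 and ZT21 (log2 fold change 1.02, SE 0.22, adjusted p 0.010). Apoe (log2 fold change 0.97, SE 0.21, adjusted p 0.011) and the water channel Aqp4 (log2 fold change 0.73, SE 0.17, adjusted p 0.013) were higher, and Vim was lower (log2 fold change -0.59, SE 0.12, adjusted p 0.0096). Pigment epithelium genes gave 8 above and 2 below of 13, and 6 were called higher and 2 lower. Enpp2 (log2 fold change 0.90, SE 0.14, adjusted p 0.0047) and the transporter Slc6a20a (log2 fold change 1.04, SE 0.17, adjusted p 0.0047) were higher. Otx2, also in the bipolar list, was lower (log2 fold change -0.82, SE 0.18, adjusted p 0.011). Pigment cell genes gave 5 above and 2 below of 12, with the melanosome genes Tyrp1 (log2 fold change 1.18, SE 0.24, adjusted p 0.0087), Gpnmb (log2 fold change 1.10, SE 0.22, adjusted p 0.0080) and Pmel (log2 fold change 0.82, SE 0.23, adjusted p 0.025) higher. Of 25 genes of the ciliary body and outflow tract, 14 lay above and 2 below, and 11 were called higher and 1 lower. Gja1, the connexin that couples the 2 ciliary epithelia, had 187 CPM in cKO eyes and 214 CPM in WT eyes at ZT3. Gja1 lay at 90.3, 51.3 and 84.3 CPM in cKO eyes and 45.8, 42.4 and 28 CPM in WT eyes at ZT9, ZT15 and ZT21 (log2 fold change 1.94, SE 0.28, adjusted p 0.0039). Ptgds, prostaglandin D synthase of the aqueous humour, had 1111 CPM in cKO eyes and 1226 CPM in WT eyes at ZT3. Ptgds measured 528, 331 and 525 CPM in cKO eyes and 209, 256 and 194 CPM in WT eyes at ZT9, ZT15 and ZT21 (log2 fold change 1.94, SE 0.26, adjusted p 0.0035). Optc (log2 fold change 1.255, SE 0.17, adjusted p 0.0037), Mfap4 (log2 fold change 1.18, SE 0.27, adjusted p 0.013) and Ltbp2 (log2 fold change 1.14, SE 0.19, adjusted p 0.0052) were higher, and Aqp1 (-0.59) and Myoc (0.75) were not outside the range. The summed level of that list was 3824 and 3916 CPM at ZT3 and 2145 to 3104 CPM at the other times.

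Of 29 lens genes, 15 lay below the range (51.7%, beside 26.9% of all genes) and 3 above (7 with the length and GC trend removed), and all 18 were called, with a median log2 fold change of -0.51. Cryba4 had 5889 CPM in cKO eyes and 3102 CPM in WT eyes at ZT3. Cryba4 stood at 11350, 9749 and 10590 CPM in cKO eyes and 6809, 7082 and 8946 CPM in WT eyes at ZT9, ZT15 and ZT21 (log2 fold change -1.06, SE 0.20, adjusted p 0.0071). Crygn (log2 fold change -1.51, SE 0.22, adjusted p 0.0039), the lens nuclease gene Dnase2b (log2 fold change -1.28, SE 0.17, adjusted p 0.0034), the connexin gene Gja3 (log2 fold change -0.86, SE 0.10, adjusted p 0.0028) and the beaded filament genes Bfsp1 (log2 fold change -0.69, SE 0.18, adjusted p 0.021) and Bfsp2 (log2 fold change -0.70, SE 0.22, adjusted p 0.036) were lower. Crybb2 went the other way, with 21620 CPM in cKO eyes and 18920 CPM in WT eyes at ZT3. Crybb2 was at 12430, 7657 and 11350 CPM in cKO eyes and 5938, 6464 and 6130 CPM in WT eyes at ZT9, ZT15 and ZT21 (log2 fold change 1.34, SE 0.22, adjusted p 0.0047). So did Lgsn (log2 fold change 0.94, SE 0.17, adjusted p 0.0060) and Grifin (log2 fold change 0.52, SE 0.16, adjusted p 0.039). Cryab was not outside the range (0.32). The lens markers as a whole took 20.4% and 15.0% of the counts at ZT3 in cKO and WT, inside the 14.7 to 24.0% of the other libraries. Crystallin genes are near-identical in part, so reads could be shared among them.

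At the front of the eye, 3 of 19 cornea and conjunctiva genes lay above and 2 below. The goblet cell mucin Muc5ac had 9.3 CPM in cKO eyes and 8.66 CPM in WT eyes at ZT3. Muc5ac lay at 2.97, 3.02 and 4.27 CPM in cKO eyes and 1.499, 1.66 and 0.639 CPM in WT eyes at ZT9, ZT15 and ZT21 (log2 fold change 2.10, SE 0.33, adjusted p 0.0047). Psca (log2 fold change 1.75, SE 0.23, adjusted p 0.0035) was higher too, while the metabolic corneal protein gene Tkt was lower (log2 fold change -0.62, SE 0.16, adjusted p 0.019). The median of the cornea list was 0.24, but -0.29 without the WT library at ZT3. Gland genes gave 3 above and 3 below of 9, with Awat2 lower (log2 fold change -1.32, SE 0.33, adjusted p 0.018). Lyz2 had 45.5 CPM in cKO eyes and 53.2 CPM in WT eyes at ZT3. Lyz2 measured 17.3, 9.42 and 20.2 CPM in cKO eyes and 10.02, 9.102 and 5.68 CPM in WT eyes at ZT9, ZT15 and ZT21 (log2 fold change 2.15, SE 0.31, adjusted p 0.0039). Lyz2 also marks macrophages, and of 16 immune genes 11 lay above, the rest inside, and 7 were called, all higher, among them Itgam (log2 fold change 1.06, SE 0.21, adjusted p 0.0082), C1qa (log2 fold change 1.06, SE 0.27, adjusted p 0.019) and Cd74 (log2 fold change 0.92, SE 0.30, adjusted p 0.047). Ptprc, the common leukocyte antigen, was not outside the range (-0.29). The summed immune markers were at 252.0 and 255.3 CPM at ZT3 and 121.4 to 214.0 CPM at the other times, and their part in the results on antigen presentation was not tested. Endothelial genes gave 7 above of 13, the rest inside, with Cdh5 (log2 fold change 1.67, SE 0.36, adjusted p 0.011), Plvap (log2 fold change 1.10, SE 0.29, adjusted p 0.023) and Kdr (log2 fold change 0.38, SE 0.11, adjusted p 0.029) among the 5 called (3 without the WT or the cKO library at ZT15).

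Skeletal muscle genes, which the extraocular muscles express, gave 12 below and 2 above of 26. Ttn had 24.5 CPM in cKO eyes and 25.9 CPM in WT eyes at ZT3. Ttn stood at 38.4, 84.3 and 64.9 CPM in cKO eyes and 171, 105 and 84.5 CPM in WT eyes at ZT9, ZT15 and ZT21 (log2 fold change -1.76, SE 0.39, adjusted p 0.011). The WT library at ZT9 was far above the others. Actn3 (log2 fold change -1.23, SE 0.19, adjusted p 0.0043), Myh1 (log2 fold change -1.14, SE 0.26, adjusted p 0.013) and Ckm (log2 fold change -0.71, SE 0.17, adjusted p 0.015) were lower too. In all 6 of the list were called lower, and 12 without the WT library at ZT9. Of 9 erythrocyte genes, 6 lay below and 1 above; Hba-a2 ran from 223.4 to 3734 CPM over the libraries, highest in WT at ZT15, and was not called (log2 fold change -1.28, SE 0.69, adjusted p 0.18), whereas the iron importer Slc25a37 was higher (log2 fold change 1.55, SE 0.17, adjusted p 0.0028). Fibroblast genes gave 3 above and 2 below of 14, with Fbln1 (log2 fold change 1.11, SE 0.23, adjusted p 0.0097) higher and Ogn lower (log2 fold change -0.51, SE 0.12, adjusted p 0.015). Smooth muscle and pericyte genes gave 3 above and 3 below of 13 (23.1% each, near the 24.8% and 26.9% of all genes). Rgs5 was higher (log2 fold change 1.60, SE 0.30, adjusted p 0.0067) and Cspg4 lower (log2 fold change -0.50, SE 0.15, adjusted p 0.033). Of 11 oligodendrocyte and Schwann cell genes, 1 lay above (Cnp, log2 fold change 0.64, SE 0.21, adjusted p 0.045) and 2 below, Mag among them (log2 fold change -1.65, SE 0.43, adjusted p 0.021). Of 4 adipocyte genes, Lpl was lower (log2 fold change -0.67, SE 0.15, adjusted p 0.012) and the other 3 were inside the range.

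Reference genes were not exempt. Of 15 widely used ones, 5 lay above the range and were called, the rest stayed inside. Actb had 798 CPM in cKO eyes and 852 CPM in WT eyes at ZT3. Actb was at 559.5, 363 and 490.5 CPM in cKO eyes and 261, 248.9 and 216 CPM in WT eyes at ZT9, ZT15 and ZT21 (log2 fold change 1.34, SE 0.23, adjusted p 0.0054). Ywhaz had 377 CPM in cKO eyes and 414 CPM in WT eyes at ZT3. Ywhaz lay at 220.5, 154 and 207.3 CPM in cKO eyes and 123, 147 and 127 CPM in WT eyes at ZT9, ZT15 and ZT21 (log2 fold change 1.32, SE 0.18, adjusted p 0.0035). Tfrc (log2 fold change 0.66, SE 0.10, adjusted p 0.0039), B2m and Polr2a (log2 fold change 0.34, SE 0.11, adjusted p 0.041) were the other 3. Ppia was not outside the range (-0.10). Snhg11, a transcript listed here as a nuclear long noncoding RNA but annotated as coding in GENCODE M21, lay above the range (log2 fold change 0.89, SE 0.15, adjusted p 0.0053).

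**Figure D5:**
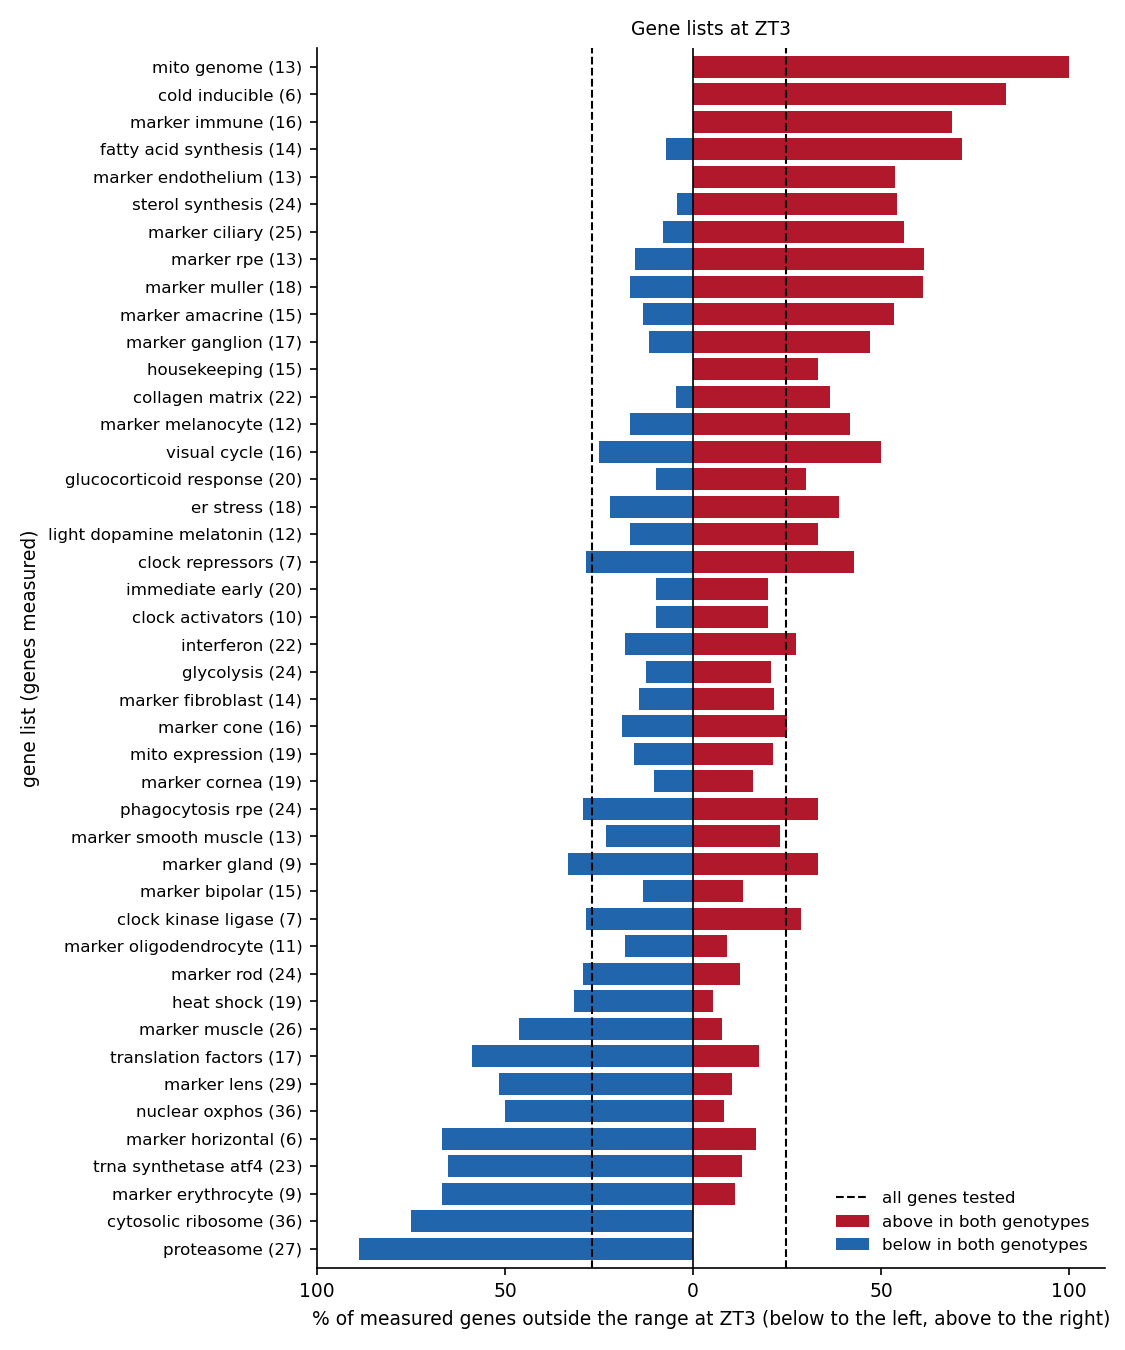
Bars give, for each gene list with at least 6 measured genes (the number in brackets), the share above (red, right) and below (blue, left) the range at ZT3 in both genotypes. Dashed lines mark the same shares over all genes tested, 24.8% and 26.9%; the mitochondrial genome lies at the upper end of the order and the proteasome at the lower.

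By median the ZT3 difference was smaller in cKO eyes than in WT eyes. Over the genes above the range, the median of ZT3 minus the mean of the other times on the log2(CPM + 0.5) scale was 0.39 in cKO and 0.65 in WT; over those below it was -0.37 in cKO and -0.62 in WT. It was larger in WT for 6838 of the 7953 genes (86.0%). The form of this varied by gene. In Rlbp1 the ZT3 levels were close, 376 CPM in cKO eyes and 339 CPM in WT eyes. Its other times were at 191 to 275 CPM in cKO eyes and 133 to 149 CPM in WT eyes, and Actb, above, did the same. In Hnrnpl the ZT3 levels differed instead, with 106 CPM in cKO eyes and 196 CPM in WT eyes. Its other times were at 34.9 to 38.3 CPM in cKO eyes and 31.98 to 48.4 CPM in WT eyes. How many genes took each form was not counted. The other cKO libraries also lay nearer to ZT3 in the share of mitochondrial mRNAs. No gene passed the test of the difference between genotypes: the interaction called 0 genes (0%) in edgeR, with 1271 at an unadjusted p under 0.05, 13 in DESeq2 and 0 in limma-voom, and each genotype has 1 library at ZT3.

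The genes that lay above the range were longer. In 5 equal bins of transcript length, from the longest transcript of each gene in GENCODE M21, the share above the range was 14.0%, 19.7%, 25.4%, 33.0% and 32.9% from short to long, and the share below was 36.4%, 31.4%, 28.5%, 22.3% and 15.7%. The median log2 fold change was -0.19 in the shortest bin and 0.13 in the longest. Median transcript lengths were 4046.5 bases for genes above, 2909 for genes below and 3372 for genes inside the range. Median GC content was 50.1% for genes above and 49.7% for genes below. In 5 equal bins of GC content, the share above was 19.8% in the lowest bin and 25.2 to 27.3% in the others. The share below was 28.7% in the lowest bin and 25.9 to 27.2% in the others. The median length was 784 bases for the mitochondrial mRNAs, which were higher. It was 1819 bases for proteasome and 1033.5 bases for ribosomal transcripts, most of which lay below the range. With the length and GC trend removed, edgeR called 2515 genes higher and 2561 lower, and 84.4% of the calls were kept.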

How the data were processed

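The series holds 8 RNA-seq libraries of whole mouse eyes, 1 for each genotype and time, each from 3 pooled mice. The authors deposited whole-number counts, 1 row for each gene symbol, without normalization, as the values show. Their aligner, counter, genome build, annotation and strand setting were not given in the sources used. Of 32544 rows, 27 whose symbols had become dates were left out (0.123 to 0.145% of the counts). Total counts were 11748995 to 20309611. For the mitochondrial, Lars2 and Gm15662, rod, lens and pseudogene shares of counts, the 95% Wilson bounds lay at most 0.0211 percentage points away and cover counting error only.

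Genes were filtered with filterByExpr by genotype (15373 kept). They were tested in R 4.3.3 with edgeR 4.0.16 (TMM, quasi-likelihood F test, genotype and a ZT3 term, 5 residual degrees of freedom) and Benjamini-Hochberg adjustment over all genes at a threshold of 0.05. The SE of a log2 fold change is its size over the root of F. Alternatives used DESeq2 1.42.0, limma 3.58.1, other scalings, fewer libraries, time as a factor and removal of the trend with transcript length and GC content. The script was tested on simulated counts. Levels are CPM on the TMM-adjusted library size. Gene features came from GENCODE M21, with 97.2% of tested symbols matched, and promoters from RefSeq (GRCm38.p6).

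The comparison and the 47 gene lists were chosen with earlier results of these data known. Named genes are Nr3c1 and, among genes outside the range in each direction, the 12 with the smallest p and a change of at least 1 on the log2 scale, the 8 with the largest gap (the smaller over both genotypes of the log2 distance to the nearest other library), and the 4 of each list with the largest change; other list members are given as values. Some genes chosen by this rule are not reported here.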

Additional observations from a re-analysis of the deposited data

Results flagged for a closer look

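Nr3c1 moved in opposite directions in the 2 genotypes at ZT3: ZT3 minus the mean of the other times was 0.14 in cKO and -0.78 in WT on the log2(CPM + 0.5) scale, with the ZT3 library above the other 3 in cKO and below the other 3 in WT. The interaction in edgeR had an adjusted p of 0.58. The mean of 13 smooth muscle and pericyte genes also moved in opposite directions, with -0.10 in cKO and 0.14 in WT, the ZT3 library lying below the other 3 in cKO and above them in WT; this difference was not tested, and each genotype has 1 library at ZT3. No group holds 4 or more libraries of 1 genotype and time, so single libraries were not tested as outliers.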

How the results depend on the processing

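No paired analysis was possible because each genotype and time has a single library, so no replicate numbers are shared. Of 220 genes given with a fold change, 188 were called, and none of these changed sign under any alternative other than the 2 covariates described next, which were not followed gene by gene. All 188 lost the call without WT at ZT3. Other scalings and tools (DESeq2 size factors, library sizes without mitochondrial, haemoglobin and crystallin transcripts, no filter, DESeq2, limma-voom) took the call from at most 8 of them, time as a factor from 17, the length and GC correction from 14, and leaving out both ZT15 libraries from 72. The number of genes called higher ran from 0 to 3177 and lower from 0 to 2982 when 1 library was left out, with the 0 in each case without WT at ZT3. Without both ZT15 libraries edgeR called 909 higher and 677 lower, and without both ZT21 libraries 1488 lower. With the covariates chosen after seeing the data, the share of mitochondrial mRNAs or that of Lars2 and Gm15662, it called 0 in each direction; 4313 and 2400 of the 4806 calls kept their sign. Requiring a gap of 0.32 on the log2 scale in both genotypes left 1329 genes above and 1376 below the range. Every other count over all genes was within 1.5 times of that reported. Counts of calls in single lists moved further: without both ZT15 libraries they were 6 lower of 36 ribosomal, 6 lower of 27 proteasome, 5 higher of 24 sterol, 8 lower of 29 lens and 6 higher of 25 ciliary genes, and shifts with 1 library left out stand beside the larger lists in the text. The cause of these shifts was not tested.

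Genes that were not called changed sign as follows (log2 fold change). When 1 library was left out, Clock ran from -0.478 to 0.075, Gapdh from -0.168 to 0.013, Myoc from -0.531 to 1.676, Nr3c1 from -0.783 to 0.145, Per2 from -0.177 to 0.096, Per3 from -0.019 to 0.307, Ptprc from -0.569 to 0.045, Rbm3 from -0.112 to 0.086 and Sqle from -0.033 to 0.029. Without both ZT9 libraries Clock was at 0.018 and Sqle at 0.035. Without both ZT15 libraries Rbm3 was at 0.124, and without both ZT21 libraries Gapdh was at 0.057. After the length and GC correction Per3 was at -0.094 and Rbm3 at 0.119. With no filter Sqle was at 0.003. Genes with few counts, such as Fosb or Mag, and reads shared with pseudogenes limit single values most. List medians kept their sign under both other scalings.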

Other observations

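Gene families, formed from protein-coding symbols that share the letters before the first digit, were looked at after the data were seen (196 families with at least 10 tested genes). Shares of at least 50% above the range at ZT3 were found, among others, in the Srsf family of splicing factors, with 7 of 11 above and 1 below, the Gng family of G protein gamma subunits (6 of 10 above, none below), the Sema family of guidance molecules (12 of 20 above, 1 below), the Mfsd family of membrane transporters (9 of 17 above, 3 below) and the Adam family of membrane proteases (8 of 16 above, 1 below). Solute carriers, the Slc family, had 107 of 297 above and 56 below. At the other end stood the Psmd family of proteasome subunits (12 of 14 below), the Ndufb family of complex I subunits (8 of 10 below), the Rpl family (35 of 48 below), the Mrpl family of mitochondrial ribosomal proteins (34 of 48 below), the Psmb family of proteasome subunits (7 of 11 below), none of the 5 with a member above the range, and the Rps family (28 of 43 below, 1 above).

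Of 345 tested transcripts annotated as pseudogenes, 173 lay below the range (50.1%) and 20 above (5.80%), with a median log2 fold change of -0.84. The share of counts in pseudogenes nevertheless was higher at ZT3, 1.31% in cKO and 1.20% in WT, against 0.729 to 0.995% in the other cKO and 0.623 to 0.652% in the other WT libraries. Gm28661 and Gm29216, chosen after their values were seen, were higher at ZT3. Gm28661 had 6495 CPM in cKO eyes and 5314 CPM in WT eyes at ZT3, against 4665, 1921 and 3864 CPM in cKO eyes and 369.6, 807 and 336 CPM in WT eyes at ZT9, ZT15 and ZT21. Gm29216 had 3936 CPM in cKO eyes and 2930 CPM in WT eyes at ZT3, against 1942, 766 and 1628 CPM in cKO eyes and 367, 387 and 264 CPM in WT eyes at ZT9, ZT15 and ZT21. Over the 8 libraries both stood in the same order as the share of counts from mitochondrial mRNAs; reads that map to both a pseudogene and the mitochondrial genome cannot be told apart here.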
